A study of Mus musculus with 6 samples.

Results

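The folding machinery of the endoplasmic reticulum (ER) was compared between pancreases of mice lacking Rkip-1 and of wild-type mice through 10 genes, the chaperones Hspa5, Hsp90b1, Calr and Canx, the protein disulfide isomerases P4hb, Pdia3, Pdia4 and Pdia6, the cochaperone Dnajb9 and the ER membrane protein Herpud1. All 10 were measured, out of 18193 genes with a probe set whose platform annotation names exactly 1 gene, and they had 21 of the 34958 such probe sets. The genes were chosen by name, as the ER folding machinery of the acinar cell and its ATF6 and XBP1 targets, with earlier results of these data known. The KO group was 3 mice labelled Rkip-1 KO and the WT group 3 wild-type mice, all 8 weeks old, drawn from a single colony kept on a C57BL/6 background, with 1 Affymetrix array of whole pancreas RNA for each sample. Samples within a group are named as biological replicates, and neither the making of the knockout nor sex or batch is stated.

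Acinar cells make and secrete more protein than almost any other cell, and nearly all of it is folded in the ER. Hspa5 (BiP) binds unfolded chains and also holds the stress sensors IRE1, PERK and ATF6 inactive. When unfolded protein accumulates, cleaved ATF6 and spliced XBP1 enter the nucleus and raise chaperones, disulfide isomerases and degradation components, while PERK acts through ATF4 and CHOP. In mammalian promoters ATF6 is known to act with NF-Y at the ER stress response element (ERSE).

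The promoters of the 10 genes were read first, because the element they are known for links them to ATF6. The windows, from RefSeq on mouse build GRCm38.p6, run from 250 bases before to 50 bases from the annotated start of each gene, and all 10 genes had one. The ERSE letters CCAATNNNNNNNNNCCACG, searched on both strands, were present in 5 of the 10 windows, those of Hspa5, Hsp90b1, Calr, Canx and Pdia6, and in 0.119% of all 32851 windows. They were also in 5 of the 73 windows of other ER genes listed further on, those of Creld2, Derl3, Dnajc3, Ero1b and Syvn1. Allowing 1 changed letter among the last 5 brought in Pdia3, Pdia4 and Herpud1, for 8 of 10, with 11 of 73 for the other ER genes and 0.998% of all windows. The sites are shown to let them be compared, each as it reads 5′ to 3′ on its own strand, with capitals for letters that match the motif.
Hspa5, chr2:34772025-34772043, gene strand: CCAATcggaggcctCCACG
Hsp90b1, chr10:86705638-86705656, gene strand: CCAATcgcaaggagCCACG
Hsp90b1, chr10:86705533-86705551, opposite strand: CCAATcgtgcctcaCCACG
Calr, chr8:84847075-84847093, opposite strand: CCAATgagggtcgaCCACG
Canx, chr11:50325800-50325818, gene strand: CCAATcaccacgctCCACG
Pdia6, chr12:17266491-17266509, gene strand: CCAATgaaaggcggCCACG
Pdia3, chr2:121413873-121413891, gene strand, 1 changed letter: CCAATcggcggctgCCACa
Pdia4, chr6:47813602-47813620, opposite strand, 1 changed letter: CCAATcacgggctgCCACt
Herpud1, chr8:94386411-94386429, gene strand, 1 changed letter: CCAATggatggcagCCACa

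Hsp90b1 also held another ERSE with 1 changed letter, and it was the only 1 of the 10 windows with more than 1 unchanged ERSE. Herpud1 differed from the chaperones in its letters. Its window held the related element ERSE-II, ATTGGNCCACG, found in 0.0365% of all windows and among the other ER genes in Dnajb11 alone, and the letters TGATGNAA, which are part of the C/EBP-ATF response element bound by ATF4 and were in 3.97% of all windows and in 6 of the 73. ERSE-II holds the same 2 blocks as ERSE with the first reversed, and its match in Herpud1 does not overlap the other matches. No other of the 10 windows held either of these. Neither ERSE nor ERSE-II was in the windows of P4hb and Dnajb9, and the letters TGACGTGG, an XBP1 site, were in 0 of the 10 windows and in 0.676% of all. A match describes the letters in the window only, and these data do not measure binding. The windows of Hspa5 and Herpud1, whose array profiles are set against all other genes further on, are printed whole on the gene strand, with the matched letters of unchanged motifs in capitals.
Hspa5, chr2:34771840-34772139, plus strand: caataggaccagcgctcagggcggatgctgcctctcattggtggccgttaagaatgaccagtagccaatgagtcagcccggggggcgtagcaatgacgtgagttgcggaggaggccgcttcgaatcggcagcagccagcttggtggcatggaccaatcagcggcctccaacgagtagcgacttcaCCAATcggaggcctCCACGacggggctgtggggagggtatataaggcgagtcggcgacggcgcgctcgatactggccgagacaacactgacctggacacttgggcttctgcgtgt
Herpud1, chr8:94386179-94386478, plus strand: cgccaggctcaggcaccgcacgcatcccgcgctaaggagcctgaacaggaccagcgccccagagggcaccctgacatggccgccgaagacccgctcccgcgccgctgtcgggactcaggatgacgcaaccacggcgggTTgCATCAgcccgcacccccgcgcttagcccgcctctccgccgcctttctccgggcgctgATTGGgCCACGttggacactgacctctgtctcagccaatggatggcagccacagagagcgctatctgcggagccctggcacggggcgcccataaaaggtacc

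**Figure D1:**
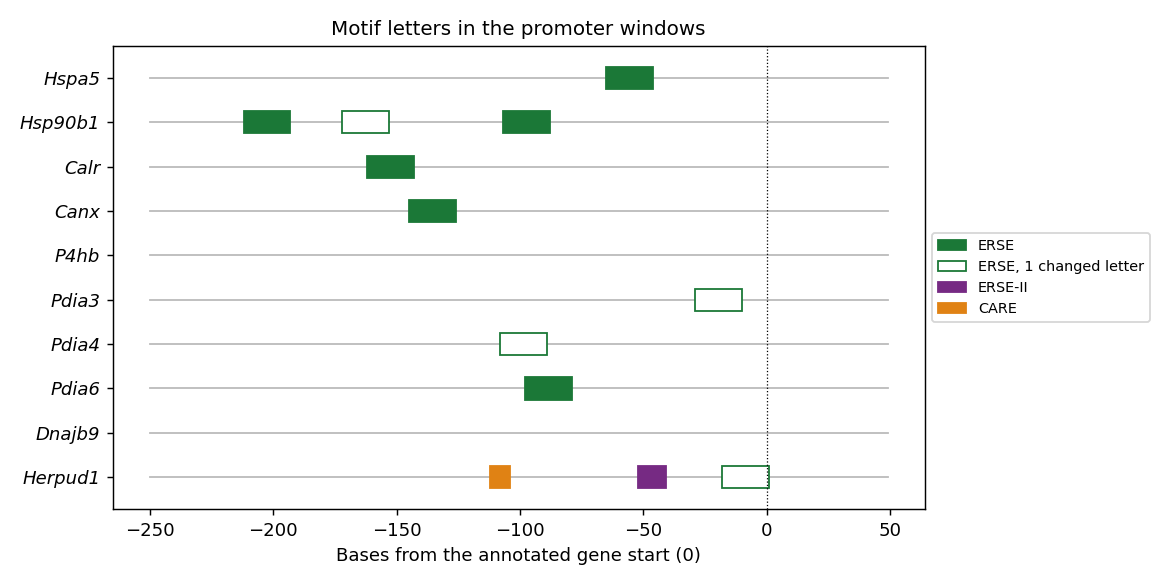
Positions of motif letters in the promoter windows of the 10 genes, in bases from the annotated gene start at 0. Filled boxes match every letter of ERSE (green), ERSE-II (purple) or the C/EBP-ATF response element letters (orange, CARE), and open green boxes are ERSE with 1 changed letter; P4hb and Dnajb9 have none, and Herpud1 alone has ERSE-II and CARE.

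The arrays were close to each other as a whole. Their log2 medians were 2.97 to 3.02, correlations between arrays over all probe sets were 0.989 or higher, and Pebp1, the gene for Rkip-1, averaged 6.03 ± 0.41 in the 3 KO arrays and 9.88 ± 0.12 in the 3 WT arrays (SD, adjusted p 5.05e-05 by limma). Values below are levels or differences on the log2 scale after RMA normalization, with ± for the SD over 3 mice, and a probe set passes where its adjusted p over all 45037 tested probe sets is under 0.05. In all, 44 probe sets passed, which is 0.0977%. The tissue label held up, with Cpa1, Ctrb1, Cel, Cela1, Cela2a, Cpb1 and Prss2 between 14.26 and 14.52 in every array, near the highest value of 14.57. In whole tissue, fewer cells of a type and less RNA per cell cannot be told apart.

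Of the 21 probe sets of the ER folding genes, 0 passed, and the smallest adjusted p was 0.254 (limma with Benjamini-Hochberg adjustment). At an unadjusted p under 0.05 there were 5, all lower in KO, against 4.66% of all probe sets lower at that level. All KO values lay below all WT values at 3 of the 21, against 6.51% of all probe sets. The 5 came from Herpud1, Canx and Hsp90b1 alone, and probe sets of a gene share its RNA. By the brightest probe set of each gene, 0 of 10 passed, against 0.132% of all genes, and 1 of 10, Herpud1, was lower at an unadjusted p under 0.05, against 5.58%. A lower mean in KO was seen in 9 of 10, Dnajb9 being the exception, and in 50.2% of all genes. The median difference was -0.11 over the 10 genes and -0.00056 over all genes. The median of the 10 genes was -0.0102 without KO replicate 2 and -0.035 without WT replicate 1, and -0.30 without KO replicate 3 and -0.29 without WT replicate 3, so its size turned on single mice.

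**Figure D2:**
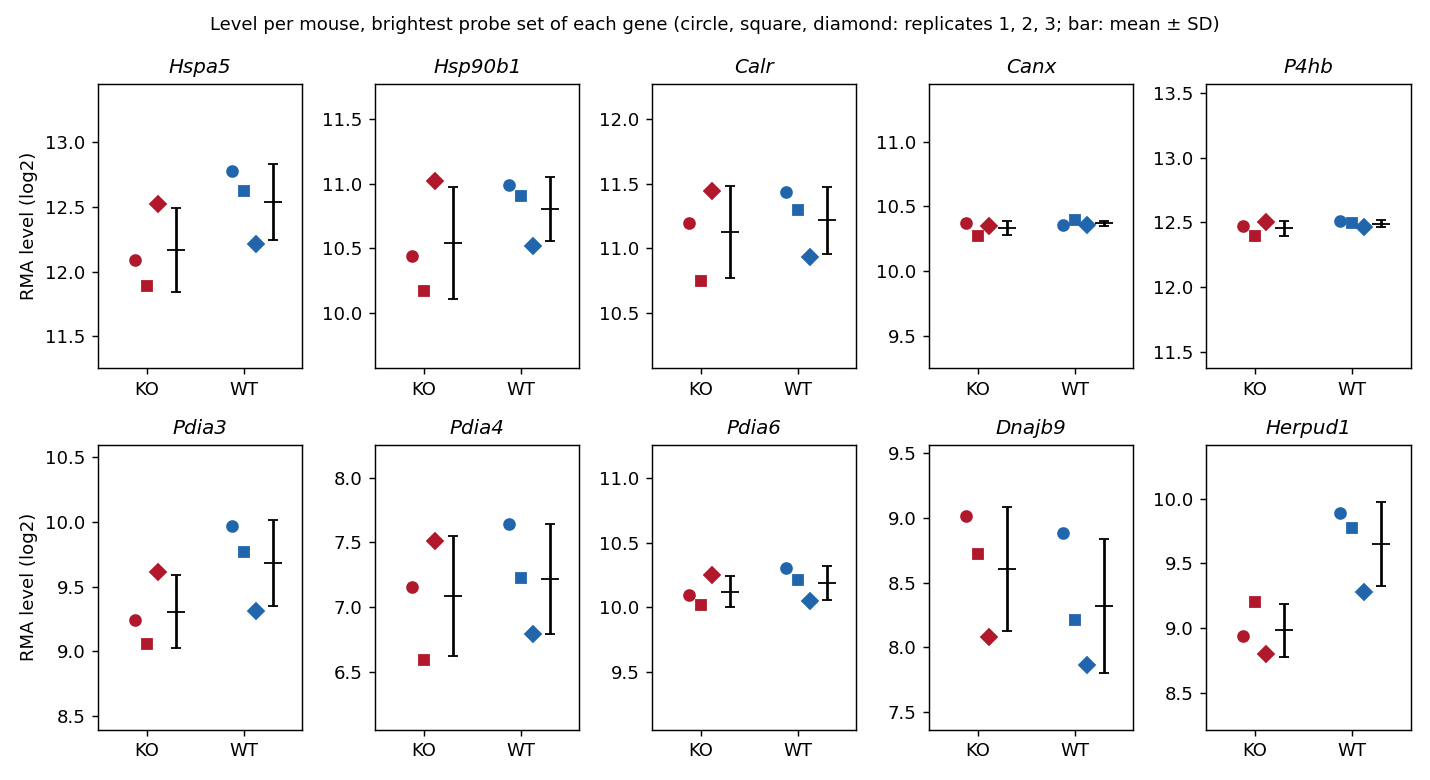
RMA level (log2, vertical axis) of the brightest probe set of each gene in 3 KO mice (red, left) and 3 WT mice (blue, right), with the mean and SD beside the points and the same axis span in every panel. Herpud1 is the gene whose 3 KO values all lie below the 3 WT values, while Canx and P4hb are nearly flat and the other genes overlap.

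Herpud1, which organises the membrane complex that sends misfolded proteins from the ER to the proteasome, was the one of the 10 genes whose groups did not overlap at the brightest probe set. Its brightest probe set (1435626_a_at) measured 8.94, 9.20 and 8.80 in KO replicates 1, 2 and 3, against 9.89, 9.77 and 9.28 in WT replicates 1, 2 and 3. Every KO value lay below every WT value, which was so for 7.56% of all genes. These gave means of 8.98 ± 0.20 in KO and 9.65 ± 0.32 in WT, so that KO was lower by a log2 difference of -0.67, or 1.59-fold (95% interval 1.23 to 2.05-fold, unadjusted p 0.00252, adjusted p 0.278 by limma), which did not pass. The second probe set (1448185_at) measured 8.90, 9.16 and 8.97 in KO and 9.77, 9.78 and 9.13 in WT. Here WT replicate 3 lay just below KO replicate 2, and the difference was -0.55 (interval -0.92 to -0.17, adjusted p 0.395). WT replicate 3 was thus the lowest WT mouse at both probe sets. Without it the differences were -0.85 and -0.76, with adjusted p of 0.0907 and 0.0791, and without WT replicate 2 they were -0.60 and -0.44, with adjusted p of 0.631 and 0.729.

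Hspa5, the ER HSP70, did not separate the genotypes. Its brightest probe set (1416064_a_at) measured 12.09, 11.89 and 12.52 in KO and 12.78, 12.63 and 12.21 in WT. The highest KO mouse, replicate 3, lay above the lowest WT mouse, replicate 3, and the difference of -0.37 had an interval of -0.78 to 0.04 (adjusted p 0.615), and was -0.23 without KO replicate 2. The second probe set (1427464_s_at) measured 10.54, 10.31 and 11.15 in KO and 11.17, 11.16 and 10.60 in WT, with the same order of mice and a difference of -0.31. The dimmest probe set (1447824_x_at), whose suffix marks possible binding of other transcripts, stayed between 7.59 and 7.84 in all 6 arrays and differed by 0.01 (interval -0.21 to 0.24).

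Hsp90b1 (GRP94), the HSP90 of the ER, gave different sizes at its 2 probe sets. The brighter (1415889_a_at) measured 10.44, 10.17 and 11.02 in KO and 10.99, 10.90 and 10.52 in WT, with overlapping groups and a difference of -0.26 (interval -0.72 to 0.20, adjusted p 0.768). With 1 array left out that difference lay between -0.0725, without KO replicate 2, and -0.50, without KO replicate 3. The other (1438040_a_at) measured 8.60, 8.07 and 8.66 in KO and 9.64, 9.11 and 9.05 in WT. All KO values lay below all WT values there, and the difference of -0.82, a 1.77-fold lower level (95% interval 1.32 to 2.37-fold, adjusted p 0.254), was the largest in size of the 21 probe sets. The gap between the 2 probe sets within an array averaged 2.10 ± 0.26 in KO and 1.53 ± 0.23 in WT. The exact two-sided permutation p for that gap was 0.1, the smallest that 3 against 3 arrays can give, and 0.467 after adjustment over the 14 pairs of probe sets compared. Which transcripts each probe set reads was not analysed here.

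The lectin chaperones Canx and Calr hold newly made glycoproteins in the ER until they are folded, Canx in the membrane and Calr in the lumen. Canx was flat at its brightest probe set (1415692_s_at), at 10.37, 10.27 and 10.35 in KO and 10.35, 10.39 and 10.35 in WT, with a difference of -0.04 and an interval of -0.23 to 0.15. At 1422845_at it measured 7.20, 7.17 and 6.82 in KO and 7.34, 7.28 and 7.64 in WT, with a difference of -0.36 without overlap (adjusted p 0.492). With probe sets of suffix _x_at or _s_at left out, this one stood for Canx, at -0.36 (adjusted p 0.489 by limma). The dimmest Canx probe set lay between 4.05 and 4.81, about the upper quartile of 4.54 over all values, and differed by -0.34. So the Canx probe sets disagreed in size. The gap between the 2 brighter ones averaged 3.27 ± 0.23 in KO and 2.95 ± 0.20 in WT. Its exact permutation p was 0.2, and as 3 against 3 arrays cannot give less than 0.1, that test cannot settle whether the gap differs. Calr was alike at its 3 probe sets, which differed by -0.09, -0.07 and -0.08. Its brightest (1417606_a_at) measured 11.20, 10.75 and 11.44 in KO and 11.43, 11.29 and 10.93 in WT, with KO replicate 2 lowest and KO replicate 3 highest of all. The Calr interval of -0.50 to 0.32 leaves room for a difference of either sign, and the sign did turn without KO replicate 2 (0.10) or WT replicate 1 (0.02).

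The disulfide isomerases form and rearrange the disulfide bonds of secreted proteins, and Pdia3 (ERp57) does so together with Canx and Calr. P4hb, the classical disulfide isomerase, was nearly constant, between 12.39 and 12.50 in KO and between 12.46 and 12.51 in WT, with a difference of -0.04 and an interval of -0.22 to 0.15. Pdia3 (1423423_at) measured 9.24, 9.06 and 9.61 in KO and 9.97, 9.77 and 9.31 in WT. Its difference of -0.38 (interval -0.79 to 0.03, adjusted p 0.611) was nearly that of Hspa5, with the same mouse overlapping from each group, and was -0.24 without WT replicate 1. Pdia4 (1416497_at) measured 7.15, 6.59 and 7.51 in KO and 7.64, 7.23 and 6.79 in WT. The mice of a group thus spanned more than the genotype difference of -0.13 (interval -0.69 to 0.43), which became 0.12 without KO replicate 2 and 0.08 without WT replicate 1. Pdia6 lay between 10.02 and 10.25 in KO and between 10.05 and 10.30 in WT and differed by -0.06. The second probe sets of Pdia3, Pdia4 and Pdia6 lay between 2.60 and 3.04, at the array medians, where a level cannot be told from background.

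Dnajb9 (ERdj4), a J-domain cochaperone that XBP1 is known to raise and that brings Hspa5 to IRE1, was the only one with a higher mean in KO at its brightest probe set. It measured 9.02, 8.72 and 8.08 in KO and 8.89, 8.21 and 7.87 in WT. The groups overlapped over most of their range, and the difference of 0.29 had an interval of -0.33 to 0.90 (adjusted p 0.823). With 1 array left out it lay between 0.058, without WT replicate 3, and 0.57, without WT replicate 1. Its SD within groups, 0.50, was the highest of the 10 genes.

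**Figure D3:**
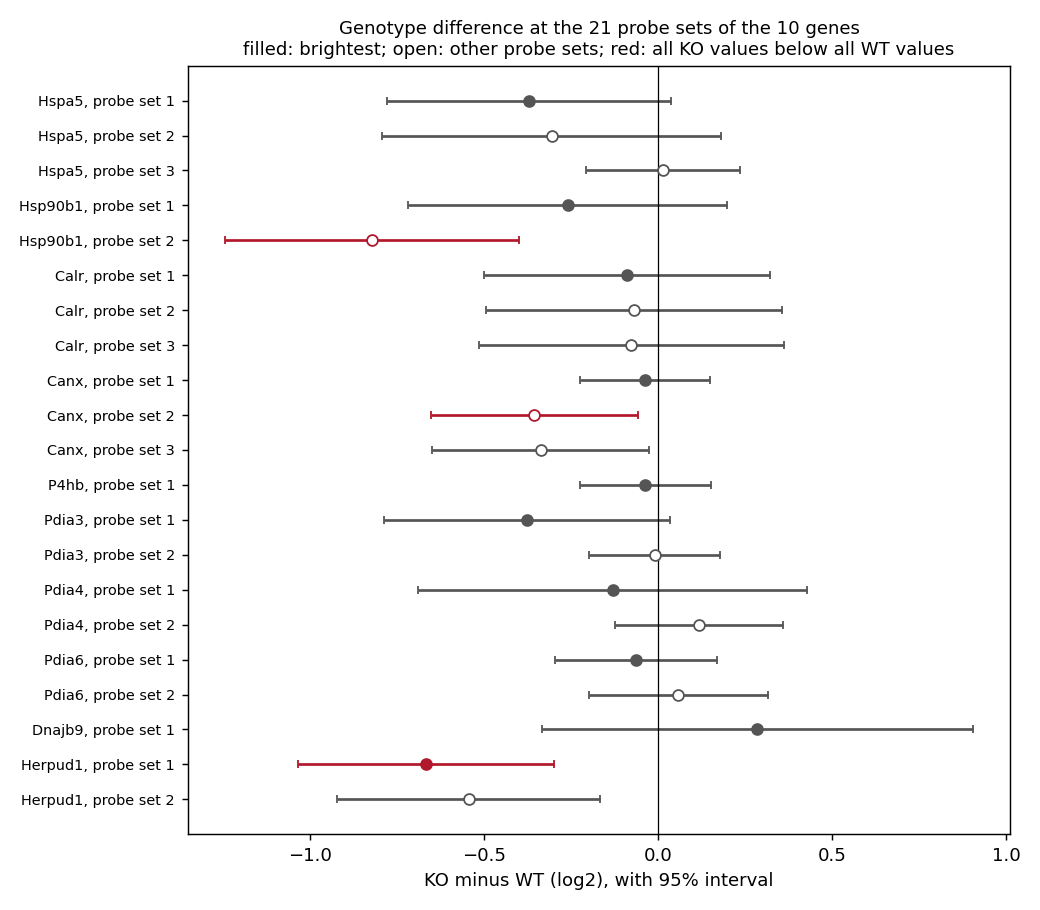
KO minus WT difference (log2) with its 95% interval at each of the 21 probe sets, numbered from the brightest of each gene. Filled points are the brightest probe set and open points the others, and the 3 probe sets in red, of Hsp90b1, Canx and Herpud1, are those where all KO values lie below all WT values.

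What most of the chaperones shared was the order of the mice within each genotype. Hspa5, Hsp90b1, Calr, P4hb, Pdia3, Pdia4 and Pdia6 were each highest in replicate 3 and lowest in replicate 2 among the KO mice, and highest in replicate 1 and lowest in replicate 3 among the WT mice. Of the 7153 genes with a mean above the upper quartile, 5.69% had both of these orders, 19.4% the KO order and 21.5% the WT order. The orders were picked after the values were seen, so the counts describe these mice. KO replicate 2 was below the gene's own mean in 9 of the 10 genes and WT replicate 3 likewise in 9 of 10, while WT replicate 1 was above it in all 10. These counts come from the same values as the orders, and no share over all genes was computed for them. The median within-group SD of the 10 genes was 0.31, against 0.13 over all genes and 0.13 over genes above the upper quartile.

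Dnajb9 and Herpud1 had the WT order but not the KO order, and among KO mice both were lowest in replicate 3, where the chaperones were highest. Canx had neither order at its brightest probe set, where it hardly varied. The 3′ minus 5′ difference of Actb, a sign of RNA integrity, was 1.81, 1.83 and 2.04 in KO replicates 1, 2 and 3 and 1.99, 1.91 and 1.78 in WT replicates 1, 2 and 3. It too was highest in KO replicate 3 and WT replicate 1 and lowest in WT replicate 3. Among KO mice, though, it was lowest in replicate 1 and not in replicate 2. The same difference of Gapdh was 0.85, 0.88 and 1.04 in KO and 0.87, 0.97 and 0.63 in WT, highest among WT mice in replicate 2. The part of RNA integrity in the order of the mice was not tested. Xist, high in female mice, was 9.09 to 9.79 in KO replicates 2 and 3 and WT replicate 3, and 4.43 or lower in the other mice. High Xist was thus in the lowest and the highest KO mouse for chaperones and in the lowest WT mouse. With the Xist level as a covariate the median difference of the 10 genes was -0.0315.

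**Figure D4:**
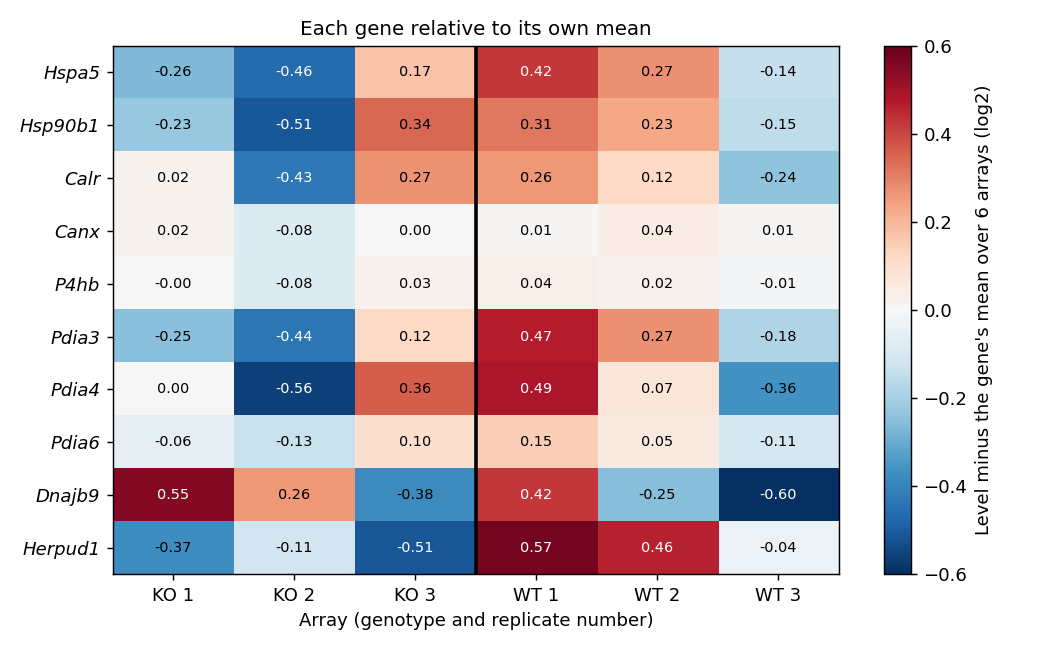
Level of each gene in each array minus the gene's mean over the 6 arrays (log2, colour and printed value), KO arrays left and WT arrays right of the black line. Hspa5, Hsp90b1, Calr, Pdia3, Pdia4 and Pdia6 are lowest in KO 2 and low in WT 3, whereas Herpud1 is below its mean in all 3 KO arrays.

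The genes with the profile nearest to Hspa5 were found by the root mean square difference of centred log2 profiles over the 6 arrays, among 7143 other genes above the upper quartile. In order of nearness they were Aak1, a kinase of clathrin-mediated endocytosis, at 0.065, Slc30a7, a zinc transporter of the secretory pathway, at 0.080, Timm21 of the mitochondrial import machinery at 0.085, and Atp2a2, the calcium pump that fills the ER, at 0.086. The median over these genes was 0.316. By the same measure Pdia3 was nearer to Hspa5 than any of them, at 0.036, and Hsp90b1 stood at 0.088, Calr at 0.160 and Pdia4 at 0.187, whereas Herpud1 was at 0.334 and Dnajb9 at 0.575. Nearest to Herpud1 were Snhg5, a small nucleolar RNA host gene, at 0.093, Paip1, which binds the poly(A)-binding protein, at 0.104, Phlda3 at 0.107 and Dut, which removes dUTP, at 0.126. None of the other 9 genes was nearer to Herpud1 than Pdia3, at 0.312, where the median gene was at 0.402.

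Among the other genes of ER folding, degradation and stress signalling, 87 of 91 listed were measured, and by limma 0 passed by their brightest probe set, where 0.132% of all genes did. At an unadjusted p under 0.05, 10 were lower and 1 was higher in KO, where 5.58% and 4.55% of all genes were. Of the 10 lower genes, 6 were among the 10 measured genes of the ATF4 and CHOP arm, given below. The median difference of the 87 genes was -0.10, and it was -0.0566 after a second quantile normalization and -0.0648 without KO replicate 2. All 3 KO values lay below the 3 WT values in 16 of the 87 and above them in 2, against 7.56% and 6.87% of all genes. The ATF4 and CHOP arm gave 6 of the 16. These lists were drawn up with earlier results of these data known.

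The transducers of the response were mixed. Xbp1, the factor spliced by IRE1, measured 12.08, 11.95 and 11.90 in KO and 11.64, 11.71 and 11.81 in WT. Every KO value was above every WT value, and the difference of 0.25 had an interval of 0.05 to 0.46 (adjusted p 0.484). Its unspliced and spliced forms are not told apart by these values. Atf6 differed by -0.12, Ern1, which encodes IRE1, by 0.13, and Eif2ak3, which encodes PERK, by -0.13, with overlapping groups and intervals that included 0 for each. Of the 16 measured sensors and transcription factors, 11 had a lower mean in KO, against 50.2% of all genes. An unadjusted p under 0.05 was found for 1, Xbp1, where 4.55% of all genes were higher at that level.

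The 10 genes of the ATF4 and CHOP arm all had a lower mean in KO, as 50.2% of all genes did, with a median of -0.34. In 6 of them no KO value reached a WT value, which was so for 7.56% of all genes. Among the 6, Asns differed by only -0.08 (interval -0.26 to 0.10). Atf3, Ppp1r15a and Atf5 overlapped between the groups, with differences of -0.20, -0.11 and -0.19, and so did Atf4, given below. Trib3, a pseudokinase induced by ATF4 and CHOP, measured 4.13, 4.63 and 4.52 in KO and 6.00, 6.08 and 5.29 in WT, with a difference of -1.36 (adjusted p 0.0614). By limma, Chac1, which degrades glutathione, differed by -2.63 (adjusted p 0.142) and Ddit4, an inhibitor of mTORC1, by -1.58 (adjusted p 0.276). Ddit3 (CHOP) differed by -0.91 (adjusted p 0.287) and Atf4 by -0.32 (adjusted p 0.55). With all probe sets of a gene averaged, Ddit3 differed by -0.41 and Atf4 by -0.21. WT replicate 3 was the lowest WT mouse for Trib3, Chac1, Ddit4, Ddit3 and Atf4. It was also the lowest for 9 of the 10 ER folding genes, Herpud1 among them, and no share over all genes was computed for it. Leaving that mouse out thus widens the differences of these ATF4 and CHOP genes. Without it Trib3, Ddit3 and Ddit4 passed, at adjusted p of 0.0093, 0.0217 and 0.0473. Without WT replicate 2 their adjusted p were 0.336, 0.644 and 0.622, and none of the 3 passed with any of the other 5 arrays left out.

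Of the other disulfide isomerases and oxidases, 14 of 16 had a lower mean in KO, against 50.2% of all genes, with a median of -0.07. Pdia2, the disulfide isomerase of the exocrine pancreas, measured 13.25, 13.36 and 13.37 in KO and 13.40, 13.40 and 13.44 in WT, with a difference of -0.08 (interval -0.27 to 0.10) without overlap. Tmx1, a membrane-bound thioredoxin-like isomerase, measured 7.60, 7.43 and 7.82 in KO and 8.17, 8.65 and 8.34 in WT, with a difference of -0.77 (interval -1.09 to -0.45, adjusted p 0.149), which was -0.48 with its probe sets averaged. Pdia5 differed by -0.37, and by -0.19 without WT replicate 1. The Hspa5 partners and cochaperones had 8 of 11 lower in KO and a median of -0.11, with Creld2, an ER stress-induced factor, at 9.69, 9.21 and 10.23 in KO and 10.32, 10.17 and 9.76 in WT, the same order of mice as Hspa5. The Creld2 difference was -0.38 with an interval of -0.91 to 0.14, and with 1 array left out it lay between -0.13, without KO replicate 2, and -0.64, without KO replicate 3.

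In ER-associated degradation, the pathway Herpud1 serves, 14 of 19 genes had a lower mean in KO, against 50.2% of all genes, with a median of -0.10. Syvn1, the ubiquitin ligase of the complex, measured 7.03, 7.19 and 7.75 in KO and 8.78, 8.31 and 7.36 in WT, with a difference of -0.83 (interval -1.53 to -0.12, adjusted p 0.505) with KO replicate 3 above WT replicate 3, and it was -0.51 without WT replicate 1. Sel1l, its membrane partner, differed by -0.26 (interval -0.57 to 0.05), and by -0.15 without WT replicate 1. Ubxn4, which recruits the ATPase that pulls substrates out of the ER, measured 8.25, 7.84 and 8.00 in KO and 8.86, 8.58 and 8.52 in WT, with a difference of -0.62 without overlap (adjusted p 0.21), which was -0.34 with its probe sets averaged. In the calnexin cycle 6 of 8 genes and among prolyl isomerases 5 of 7 had a lower mean in KO, again beside 50.2% of all genes. Their medians were -0.11 and -0.04.

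**Figure D5:**
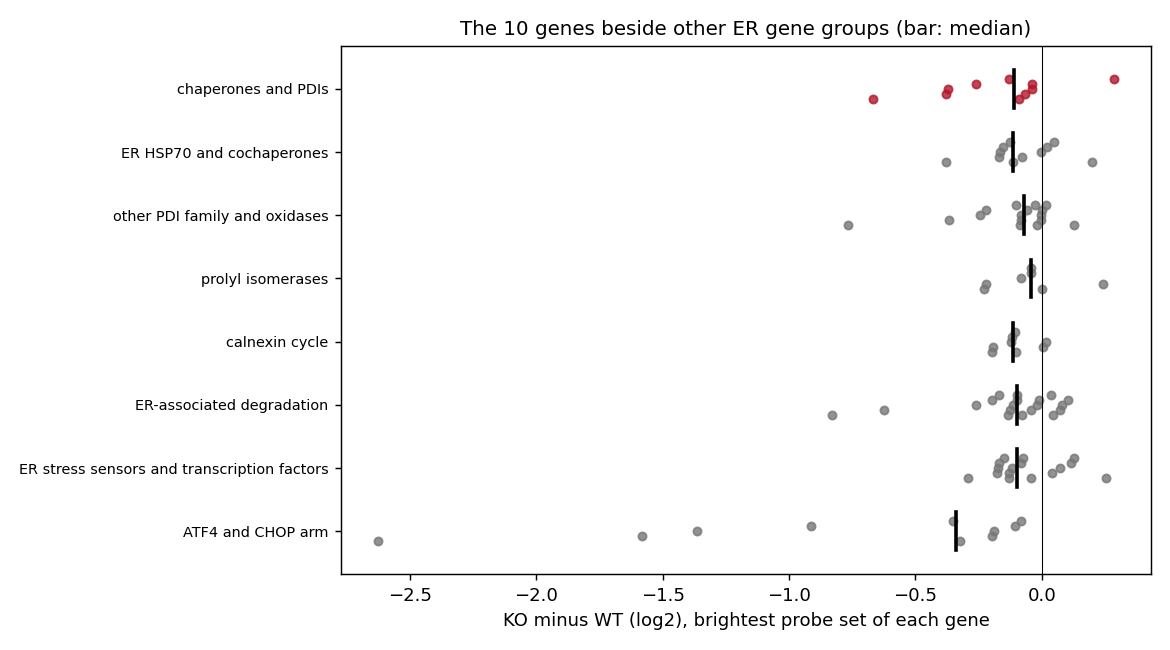
KO minus WT difference (log2, horizontal axis) of every measured gene in each group, with the group median as a black bar and the 10 chaperone and disulfide isomerase genes in red at the top. Medians lie between -0.11 and -0.04 except in the ATF4 and CHOP arm, where the median is -0.34 and Chac1 lies at -2.63.

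Markers of other cells were read beside these values, as the mean log2 level of each list in an array. Stellate and fibroblast markers were lower in KO in 8 of 8 genes, where 50.2% of all genes were. Their list levels were 7.18 to 7.57 in KO and 7.65 to 7.87 in WT, so the list separated the genotypes as Herpud1 did. The 8 differences ran from -0.61 for Col1a1 to -0.05 for Pdgfra and -0.02 for Pdgfrb. By limma 4 of the 8 were lower at an unadjusted p under 0.05, against 5.58% of all genes, and 0 passed. The part of stellate cells and fibroblasts in the Herpud1 difference was not tested. Plasma and B cell markers, of interest because plasma cells also carry a large ER, were lower in 4 of 7 genes, at list levels of 2.92 to 3.67 in KO and 3.23 to 3.81 in WT, with 2 of 7 above the upper quartile of all values. Acinar markers were at 13.72 to 13.80 in KO and 13.70 to 13.79 in WT, and islet markers at 7.70 to 7.88 in KO and 7.84 to 7.91 in WT. All acinar markers but Amy1 lay near the highest value, where levels are compressed, so their list can show little difference. The list levels of duct and endothelial markers overlapped between genotypes. So did those of adipocyte and other leukocyte markers, with adipocyte levels of 4.07 to 5.17 in KO and 4.89 to 5.67 in WT. Within these lists the duct marker Sox9 (0.52) and the leukocyte marker Cd3e (0.24) were above WT without overlap, and the leukocyte marker Adgre1 (-0.26) below. Of all genes 6.87% lay above and 7.56% below in this way, and none of these markers passed.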

How the data were processed

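Whole pancreas RNA from 3 KO and 3 WT mice was measured on 1 Affymetrix array per sample. The deposited log2 values, 1 per probe set and array, were made by the authors; per the submitters' processing notes, RMA and affy were used, with no version or setting among the sources used here. RMA equalises the arrays, so a shift shared by most genes is not visible, and bright probe sets are compressed. Without scanner files, which were not analysed here, no detection calls were made, and the number of arrays limits the precision.

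Of 45101 probe sets, 64 controls were left out, which left 45037. Gene symbols came from the platform annotation, where 34958 probe sets had 1 symbol, 932 several and 9211 none, and were updated by Entrez identifier through RefSeq for 34754, with 204 kept. KO minus WT was tested in limma 3.58.1 (R 4.3.3) by lmFit and eBayes, two-sided, with Benjamini-Hochberg adjustment over all 45037 probe sets and 95% intervals on 9.53 degrees of freedom. The brightest probe set over all arrays stood for a gene. The test was checked on simulated data with known changes, and the share of changes it recovered is not reported here. Where nothing says that samples came from separate litters or days, p-values measure only the spread between these samples.

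Named genes were Pebp1, the 10 members, the 3 genes of smallest p of each ER list, 7 sensors and effectors, and the 4 nearest profiles to Hspa5 and Herpud1. Members, lists and rules were chosen with earlier results of these data known. Promoter letters came from RefSeq windows of GRCm38.p6. Alternatives were other normalizations, filters, variance models, arrays and probe set choices. Figures were drawn with matplotlib 3.10.9.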

Additional observations from a re-analysis of the deposited data

How the results depend on the processing

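No ER folding gene passed under any of the alternatives run, and the number of its probe sets past the threshold was 0 in each. The count over all probe sets, 44, was 22 with Xist as a covariate, 76 at an adjusted p under 0.1, and 16 to 41 with an array left out. The other ER genes past the threshold, 0 in the main analysis, numbered 1 (Trib3) with an intensity trend and robust variance, with a gene's probe sets averaged, and at an adjusted p under 0.1, and 0 to 3 with an array left out. The median difference of the 10 genes ranged from -0.30 to -0.0102 with an array left out, and was -0.0571 after a second quantile normalization, -0.0315 with the Xist covariate and -0.20 without probe sets of suffix _x_at or _s_at. That of the other ER genes ranged from -0.13 to -0.0648 with an array left out. Signs turned for values near 0. Calr ranged from -0.25 to 0.10 and Pdia4 from -0.35 to 0.12 with an array left out, the dimmest Hspa5 probe set from -0.032 to 0.093 and -0.0077 with equal array medians, and Ern1 was -0.0082 with its probe sets averaged. The cause was not tested. Herpud1 ranged from -0.85 to -0.55 over all settings, with adjusted p of 0.0907 to 0.631, and its second probe set from -0.76 to -0.44, with adjusted p of 0.0791 to 0.729.

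Same-numbered KO and WT arrays deviated together with correlations of 0.19, -0.03 and -0.08. These were not compared with the correlations of other array pairs, so they cannot tell whether the numbers pair the mice. With the replicate number as a block, 33 probe sets passed, the median of the 10 genes was -0.11, and 0 of 51 named results changed side or sign.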
